A study of Homo sapiens with 8 samples.

Results

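The 10 genes described here are markers used to recognise hepatic progenitor cells and stem-like cells of liver cancer: ANPEP, PROM1, EPCAM, KRT19, SOX9, CD44, CD24, GPC3, SALL4 and DPP4. They were taken by gene symbol from a table of 20263 genes, and each symbol matched 1 row. The cells were MHCC-97H, a line established from human hepatocellular carcinoma and labelled as epithelioid cells from liver, and their RNA was sequenced. There were 4 libraries from cells given DMSO, the solvent, and 4 from cells given lenvatinib, an inhibitor of several receptor tyrosine kinases including the VEGF and FGF receptors. Exposure was 24 hours in all groups, and 1 lenvatinib library was made at each of 40, 60, 80 and 100 µM. Whether the 4 DMSO libraries are separate cultures is not stated, so the p-values reflect only a spread between libraries that could be technical. Where doses are pooled, differences between doses are part of the spread in the lenvatinib group. Its SDs over 4 libraries are therefore not a spread between replicates of 1 dose.

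In fetal liver and in regenerating bile ductules, progenitor cells that can form hepatocytes or biliary cells carry surface proteins and cytokeratins that mature hepatocytes have lost. Several of these proteins, among them EPCAM, CD44, CD24, PROM1 (CD133) and ANPEP (CD13), are also used to sort liver cancer cells that form new tumours, and GPC3 and SALL4 are oncofetal genes that some hepatocellular carcinomas express again. Different tumours and cell lines express different subsets of them.

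The libraries held between 10181973 counts (60 µM) and 37384578 counts (80 µM), and reads were found for 11076 genes at 60 µM and for 13290 to 14340 elsewhere. Libraries differed in a trend with GC content, summarised for each library as the slope, on transcript GC content, of the log2 difference between that library and the average library, per 10 percentage points. This GC slope was 0.28, -0.50, -0.99 and -0.10 in DMSO libraries 1 to 4, and 0.67, 1.82, -0.58 and -0.60 at 40, 60, 80 and 100 µM. The DMSO and lenvatinib means were -0.33 ± 0.55 and 0.33 ± 1.16 (SD, n = 4 each; two-sided p = 0.429 by exact permutation). Each comparison was therefore fitted without and with this slope as a covariate. Among the epithelial markers KRT8 (5982 ± 2356 CPM in DMSO, that is TMM-scaled counts per 1e6, ± SD) and KRT18 (3806 ± 1744 CPM) were abundant. CDH1 (1.38 ± 0.252 CPM) and OCLN (0.185 ± 0.136 CPM) were low in DMSO. The hepatocyte markers ALB, AFP, APOA1, APOA2 and TF had 6, 2, 10, 7 and 4 reads, all in the 60 µM library and none in the other 7. Of all 18 hepatocyte markers 6 passed the filter, among them CEBPA (30.3 ± 11.3 CPM in DMSO) and RBP4 (6.01 ± 2.57 CPM), and 3 had no read. Of 12 markers of leukocytes, endothelium and mesenchyme, 5 passed the filter; PTPRC and CD3E had no read, PECAM1 had 4 reads, and the summed level of the list was 66.9 to 98.6 CPM in DMSO and 65.0 to 114 CPM in lenvatinib libraries. Their part in the results below was not tested.

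ANPEP, the only marker that edgeR called over all 4 doses with the GC slope, is known to be transcribed from separate promoters, an outer one used in myeloid cells and an inner one used in epithelia. RefSeq promoter windows were at hand for 5 of the 10 genes (ANPEP, PROM1, CD44, CD24 and DPP4). The outer ANPEP window and a CD24 window are shown because, of the genes with a window, these had the lowest fold changes in the comparison with the GC slope; the inner ANPEP window is not shown here, and which start site was used was not measured. Capitals mark GGGCGG, the SP1 box. Both sequences lie on the minus strand of GRCh38.p14 and are written 5′ to 3′.
ANPEP outer promoter, chr15:89814865-89815102: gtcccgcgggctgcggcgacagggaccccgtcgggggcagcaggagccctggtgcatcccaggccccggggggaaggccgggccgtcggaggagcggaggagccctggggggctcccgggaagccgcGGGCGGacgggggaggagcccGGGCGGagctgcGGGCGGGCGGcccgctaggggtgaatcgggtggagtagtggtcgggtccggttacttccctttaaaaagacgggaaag
CD24 promoter, chr6:106975628-106975877: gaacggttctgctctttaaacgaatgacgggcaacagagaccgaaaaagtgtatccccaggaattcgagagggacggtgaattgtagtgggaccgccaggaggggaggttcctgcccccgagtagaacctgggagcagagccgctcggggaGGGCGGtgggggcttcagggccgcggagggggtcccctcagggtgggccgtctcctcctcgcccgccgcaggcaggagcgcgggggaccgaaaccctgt

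The ANPEP outer window of 250 bases was 74% G or C and held GGGCGG at 4 positions, of which the pair at -90 and -86 from the transcript start overlapped. Its last 12 bases, next to the transcript start, lie in an annotated exon and are not printed. The 238 printed bases were 74.8% G or C. The CD24 window was 65.6% G or C and held 1 GGGCGG, at -99. Of the CD24 windows not shown, that at chr6:106975466-106975715 held 0 and that at chr6:106974040-106974289 held 1. Searched on both strands, GGGCGG was found in 42.6% of 35116 RefSeq windows of 250 bases, so it is common among promoters. AP-1 (TGANTCA, 6.57% of windows), ETS (CCGGAA, 14.5%), TCF/LEF (CTTTGA, 11.2%) and TATAAA (10.7%) had no match in these ANPEP and CD24 windows. A match is a description of letters, not evidence of binding.

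Per transcript length, on the deposited TPM scale, 3 of the markers made up most of the signal. CD44, the hyaluronan receptor, had 104 ± 25.3 TPM in DMSO (SD, n = 4). CD24, a small glycosylphosphatidylinositol-anchored sialoglycoprotein, had 29.6 ± 15.6 TPM, and ANPEP had 10.5 ± 0.606 TPM. CD44 lay above CD24 in each DMSO library, and the lowest CD24 value (11.6 TPM) was only just above the highest ANPEP value (11.0 TPM). SALL4 (2.33 ± 2.15 TPM), SOX9 (1.31 ± 0.916 TPM) and EPCAM (0.566 ± 0.518 TPM) followed, and these 3 neighbours did not differ beyond their spread.

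The other 4 genes were at or near 0. KRT19, the biliary and progenitor keratin, had 4 reads, all in the 60 µM library, which also held all reads of ALB, AFP, APOA1, APOA2 and TF. KRT19 also has annotated pseudogenes that are not among the genes counted, so its count is uncertain where reads match both. PROM1, a pentaspan membrane glycoprotein, had 4 and 6 reads in DMSO libraries 1 and 4 and 2 reads at 60 µM. DPP4, a cell-surface dipeptidyl peptidase, had 2 reads in each of DMSO libraries 2 and 4. GPC3, a heparan sulfate proteoglycan of the cell surface, had 0 reads throughout; at the depth of these libraries a count of 0 allows up to 3 counts, or 0.0627 (80 µM) to 0.483 (60 µM) TMM-scaled CPM. Small counts were mostly even (66.7% to 78.0% of counts from 1 to 10, against 48.7% to 50.8% of counts over 100), and whether 2 reads are 2 fragments was not tested; these limits cover counting error only. EPCAM, the epithelial adhesion molecule, had 5, 33, 27 and 4 reads in the DMSO libraries and 0, 0, 28 and 28 at 40, 60, 80 and 100 µM. Both groups thus held libraries with few or no EPCAM reads and libraries with about 30.

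**Figure D1:**
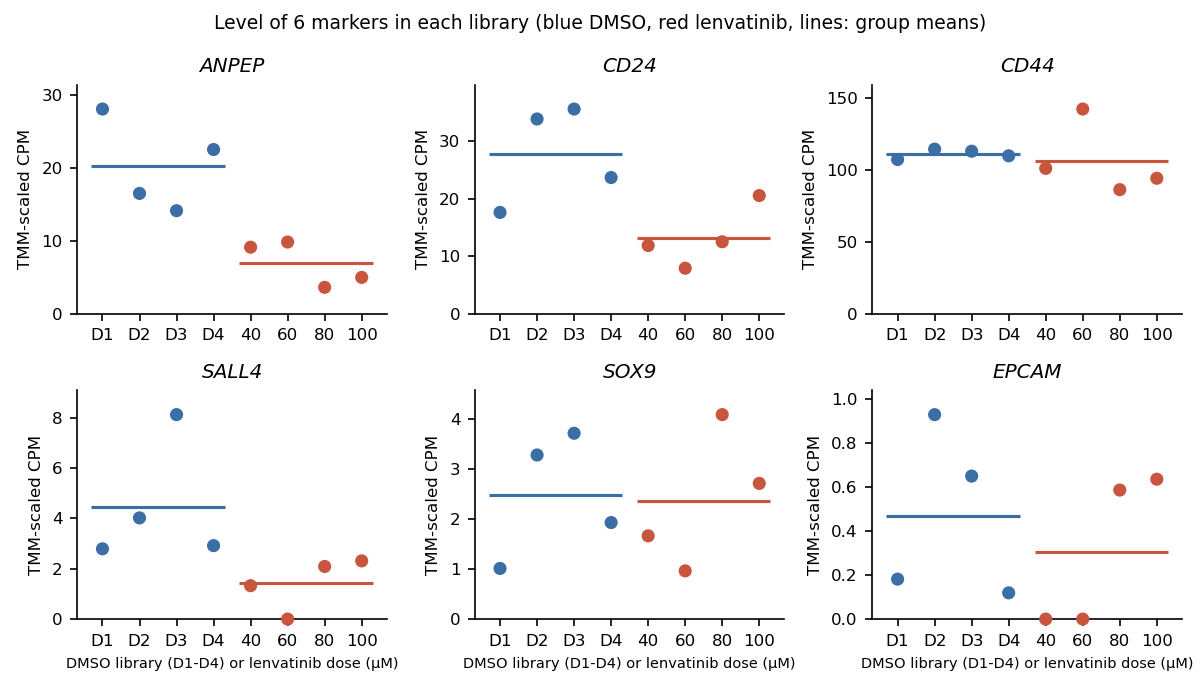
Level of 6 markers in each library (TMM-scaled CPM, counts per 1e6; each point is 1 library, DMSO blue and lenvatinib by dose red, lines are group means). ANPEP lies at 14.1 to 28.1 CPM in DMSO and 3.59 to 9.82 CPM in lenvatinib libraries, while CD44 lies between 86.4 and 143 CPM (its high 60 µM value is below DMSO in TPM).

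Genes averaging 1 CPM or more across all libraries were tested; 5 of the 10 markers passed (ANPEP, CD44, CD24, SALL4 and SOX9), among 11827 genes. On GRCh38 they lie at chr15:89784889-89815401 (ANPEP, minus strand), chr11:35138870-35232402 (CD44, plus), chr6:106969831-106975627 (CD24, minus), chr20:51782331-51802520 (SALL4, minus) and chr17:72121020-72126420 (SOX9, plus).

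ANPEP, aminopeptidase N or CD13, a zinc ectopeptidase that trims peptides at the cell surface, was lower in every lenvatinib library than in every DMSO library. It had 28.1, 16.5, 14.1 and 22.5 CPM in DMSO libraries 1 to 4. At 40, 60, 80 and 100 µM it had 9.11, 9.82, 3.59 and 4.96 CPM. The groups did not overlap on this scale, in raw counts (587 to 775 against 61 to 219) or in deposited TPM (9.67 to 11.0 against 2.54 to 3.50). The TPM means stood 3.61-fold apart (10.5 ± 0.606 against 2.92 ± 0.448, SD, n = 4 each), a wider gap than the spread within either group. Lying wholly below DMSO was the state of 3.38% of all tested genes (400 genes), and of 2 of the 5 tested markers, ANPEP and SALL4.

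Without the GC slope, the ANPEP log2 fold change was -1.57 ± 0.46 (SE; edgeR adjusted p = 0.874, unadjusted p = 0.00756), and no marker was called, as no gene was (0% of genes called; 4.42% had an unadjusted p under 0.05). DESeq2 called 94 genes in that comparison (0.795%), none of them a marker, with an adjusted p of 0.0555 for ANPEP, and limma-voom called 0. With the GC slope as a covariate, ANPEP fell by 2.001 ± 0.206 in log2 (adjusted p = 0.00566 by edgeR, lower in 4 of 4 lenvatinib libraries). In that fit 3.26% of genes were called in either direction and 1.78% lower (20.3% had an unadjusted p under 0.05), and ANPEP alone of the 5 tested markers was called. DESeq2 called 17.2% of genes and 3 of the 5 markers with the GC slope, and limma-voom 7.02% and 3. The call was lost without the 80 µM library (-1.84, edgeR adjusted p = 0.0584) and without the 100 µM library (-2.13, edgeR adjusted p = 0.0537). Without the 60 µM library edgeR called 2770 genes of 11864 and 4 of the 5 markers lower, adding SALL4 (-1.001, adjusted p = 0.0185), CD24 (-0.75, adjusted p = 0.0268) and CD44 (-0.23, adjusted p = 0.0435) to ANPEP.

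CD24 was not called by edgeR over all doses. It had 17.6, 33.9, 35.6 and 23.7 CPM in DMSO and 11.8, 7.89, 12.5 and 20.5 CPM at 40, 60, 80 and 100 µM. On this scale only the 100 µM library reached into the DMSO range, which itself spanned 2.02-fold. In deposited TPM the 80 µM library (16.6) also lay within the DMSO range (11.6 to 43.7). The same held in raw counts (598 at 80 µM, 486 to 1483 in DMSO). Its log2 fold change was -1.07 ± 0.40 without the GC slope (edgeR adjusted p = 0.874) and -0.76 ± 0.22 with it (edgeR adjusted p = 0.101). CD24 has 3 processed pseudogenes, none listed in the table, so its counts are uncertain where reads match both.

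SALL4, a zinc-finger factor of embryonic stem cells and fetal liver, had 2.79, 4.02, 8.12 and 2.92 CPM in DMSO and 1.33, 0, 2.09 and 2.31 CPM at rising dose. The groups did not overlap on this scale, but they did in raw counts (77 to 338 against 0 to 102) and in TPM (0.838 to 5.53 against 0 to 1.54). At 60 µM SALL4 had no read, at least 9.24-fold lower than the DMSO mean when the limit of 3 counts in that library is used. Its log2 fold change was -1.59 ± 0.89 without (edgeR adjusted p = 0.874) and -1.05 ± 0.38 with the GC slope (edgeR adjusted p = 0.176). SALL4 has 5 annotated pseudogenes that the table does not list, with the same uncertainty.

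CD44 had 107, 115, 113 and 110 CPM in the DMSO libraries. It had 101, 143, 86.4 and 94.3 CPM at 40, 60, 80 and 100 µM, so the 60 µM library lay above all DMSO libraries and the other 3 below them. The place of the 60 µM library turned with the scale: in deposited TPM it had 70.3, below all DMSO libraries (72.8 to 126), and its log2 fold change against DMSO was 0.36 with TMM and -0.47 with library totals only. Its log2 fold change over all doses was -0.07 ± 0.24 without (edgeR adjusted p = 0.919) and -0.23 ± 0.13 with the GC slope (edgeR adjusted p = 0.358).

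SOX9, a transcription factor of biliary and progenitor cells, had 1.01, 3.29, 3.72 and 1.93 CPM in DMSO and 1.67, 0.966, 4.10 and 2.72 CPM at rising dose, with full overlap. Its log2 fold change was -0.06 ± 0.61 without (edgeR adjusted p = 0.971) and 0.42 ± 0.31 with the GC slope (edgeR adjusted p = 0.485). With the slope, the 5 tested markers had a median log2 fold change of -0.76 beside -0.06 over all genes tested, 4 of them negative.

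**Figure D2:**
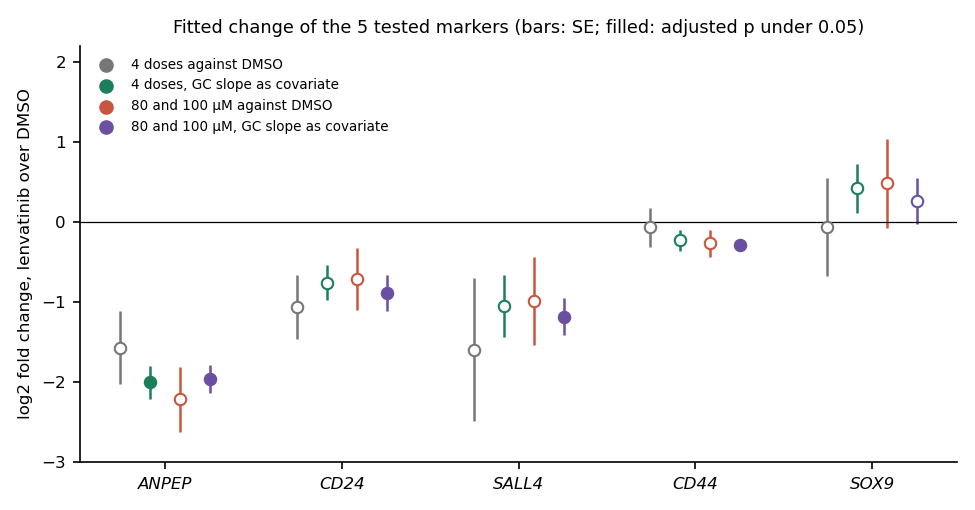
Log2 fold change of the 5 tested markers, lenvatinib minus DMSO, under each fit (points; bars are 1 standard error). Filled points have an adjusted p under 0.05: ANPEP is filled with the GC slope over all doses (-2.001), and 4 markers are at 80 and 100 µM with the GC slope, where SOX9 (0.26) is not.

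The markers differ in GC content and moved with the GC slope to unequal degrees. The longest ANPEP transcript is 58.4% G or C, against 45.8% for CD24, 45.3% for CD44, 51.0% for SOX9 and 51.3% for SALL4, and a median of 49.1% over 11823 tested genes with a value. As a description, the covariate's coefficient, the log2 change per unit of GC slope, was 0.61 ± 0.12 (SE) for ANPEP and 0.20 ± 0.07 for CD44. It was -0.51 ± 0.13 for CD24, -0.93 ± 0.21 for SOX9 and -1.19 ± 0.29 for SALL4, beside a median of -0.21 and quartiles of -1.22 and 0.55 over all genes. The most GC-tilted library was 60 µM, where SALL4, CD24 and SOX9 were lowest.

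DMSO library 2 and the 80 and 100 µM libraries had nearly equal GC slopes (-0.50, -0.58 and -0.60), which allows the levels to be set side by side without a covariate or test. ANPEP had 16.5 CPM in that DMSO library and 3.59 and 4.96 CPM at the higher doses. CD24 had 33.9 CPM against 12.5 and 20.5, SALL4 4.02 against 2.09 and 2.31, and CD44 115 against 86.4 and 94.3. In deposited TPM the SALL4 values lay closer, at 1.57 in that DMSO library against 1.19 and 1.54, so its difference depends on the scale. SOX9 had 3.29 CPM against 4.10 and 2.72, with the DMSO value between the other two.

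**Figure D3:**
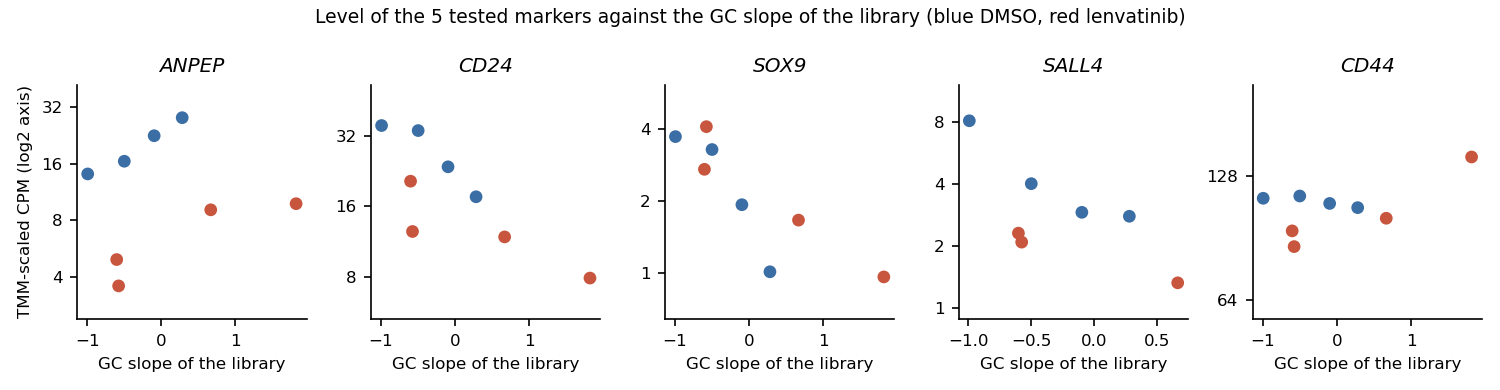
Level of the tested markers (TMM-scaled CPM, log axis) against each library's GC slope, 1 point per library, DMSO and lenvatinib in separate colours. At a slope near -0.6 ANPEP separates the 80 and 100 µM libraries from DMSO library 2 (3.59 and 4.96 against 16.5 CPM); the 60 µM value of SALL4, 0, is not drawn on the log axis.

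The 80 and 100 µM libraries were also compared alone with DMSO. Without the GC slope no marker and no gene was called (0% of genes; 7.65% had an unadjusted p under 0.05), with ANPEP at -2.21 ± 0.40 (adjusted p = 0.310 by edgeR). DESeq2 called 284 genes there, 1 of them a marker, and limma-voom 0. With the GC slope 4 of the 5 tested markers fell, in a fit that called 20.8% of all genes and 11.1% as lower. ANPEP fell by 1.96 ± 0.17 (edgeR adjusted p = 0.00102) and SALL4 by 1.18 ± 0.23 (edgeR adjusted p = 0.0132). CD24 fell by 0.89 ± 0.23 (edgeR adjusted p = 0.0391) and CD44 by 0.29 ± 0.07 (edgeR adjusted p = 0.0288), all on the log2 scale. SOX9 had 0.26 ± 0.29 (edgeR adjusted p = 0.574). This fit had 3 residual degrees of freedom.

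No marker changed with dose within the lenvatinib libraries by the test (edgeR, 0% of genes called; 7.4% had an unadjusted p under 0.05). DESeq2 called 131 genes for the dose slope, no marker among them, and limma-voom 0. The ANPEP slope was -0.40 ± 0.25 log2 per 20 µM (edgeR adjusted p = 0.308), and -0.06 ± 0.15 with the GC slope added. Against DMSO, dose by dose, the ANPEP log2 fold changes were -1.16 ± 0.56 (40 µM), -1.05 ± 0.56 (60 µM), -2.50 ± 0.61 (80 µM) and -2.03 ± 0.59 (100 µM), none called by edgeR. By DESeq2 the ANPEP value at 80 µM was -2.44. The lone library of a dose is assumed there to vary as the DMSO libraries do. SALL4 at 60 µM was the only marker that edgeR called (adjusted p = 0.0309), in a library where 37.2% of genes were called and 25.3% as lower, with a median log2 fold change of -0.74 over all genes. That call was lost without DMSO library 2 or without DMSO library 4, when edgeR called 0 genes, and it did not hold by limma-voom (adjusted p = 0.108) or with the GC slope added in edgeR (adjusted p = 0.0619). By DESeq2 the CD24 log2 fold change at 60 µM was -1.64. At 40, 80 and 100 µM edgeR called 0% of genes (8.62%, 2.84% and 2.21% had an unadjusted p under 0.05).

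With the GC slope added to the dose groups, its coefficient rests on the 4 DMSO libraries alone (2 residual degrees of freedom), whose slopes ran from -0.99 to 0.28. The 80 and 100 µM libraries lie within that range and the 40 and 60 µM libraries outside it, so only the former are described, each as 1 library without a replicate. ANPEP was called lower at 80 µM (-2.25 ± 0.20, edgeR adjusted p = 0.00303) and at 100 µM (-1.76 ± 0.19, edgeR adjusted p = 0.00737), where 7.15% and 4.1% of genes were called lower. CD24 (-1.30 ± 0.20, edgeR adjusted p = 0.0127) and CD44 (-0.38 ± 0.09, edgeR adjusted p = 0.0470) were also called lower at 80 µM.

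The genes whose pattern over the 8 libraries was most like that of ANPEP were TNS4 (Pearson r = 0.985), OLFML2B (0.979), WFDC1 (0.979), C2orf54 (0.977) and SEMA7A (0.966), of 9669 genes averaging 5 CPM or more. The correlation is of log2 CPM over all 8 libraries, which share their depth and base composition between genes, and includes the difference between the groups. TNS4, a tensin of focal adhesions, had 66.5 ± 16.0 CPM in DMSO and 25.2 ± 14.5 CPM in lenvatinib libraries. WFDC1, a secreted protein with a whey acidic protein domain, had 39.9 ± 14.4 and 13.5 ± 9.13 CPM. In both, as in ANPEP, the 80 and 100 µM libraries were lowest.

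**Figure D4:**
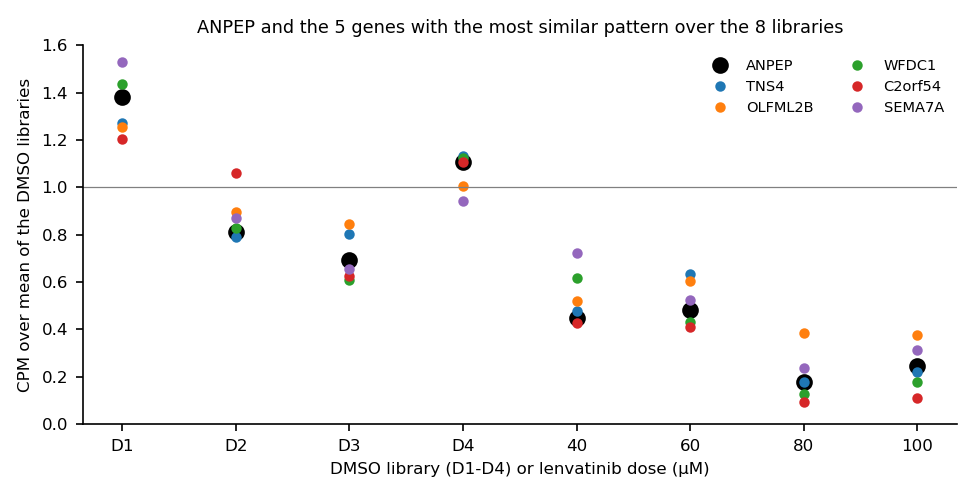
ANPEP and the 5 genes most like it in each library, as CPM divided by the gene's DMSO mean (linear axis; 1 point per gene and library, DMSO libraries then lenvatinib by dose). All 6 genes are lower in the 80 and 100 µM libraries than in any DMSO library; for ANPEP these are 3.59 and 4.96 CPM against at least 14.1 CPM.

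Related genes were counted in the fit with the GC slope, where 3.26% of all genes were called and the median log2 fold change was -0.06. The lists below give the count called by edgeR, then the number with an unadjusted p under 0.05 and the numbers called by DESeq2 and by limma-voom. Of 24 further progenitor and stem-cell markers 11 were tested and 0 were called (median 0.13; 4, 4 and 3). ICAM1, an adhesion molecule, had 71.8 ± 17.1 CPM in DMSO and 41.4 ± 11.6 CPM in lenvatinib libraries (-0.93, edgeR adjusted p = 0.0570). KRT7, a biliary keratin, had 1767 ± 747 and 1456 ± 807 CPM (-0.87, edgeR adjusted p = 0.0641). Neither gene passed edgeR's test.

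Of 26 family relatives of the markers 11 were tested and 0 were called (median 0.11; 3, 3 and 1). Among them the other M1 aminopeptidases LNPEP, ERAP1, NPEPPS and RNPEP had log2 fold changes of -0.29, 0.59, -0.12 and 0.16, and ENPEP had no read. PROM2, the relative of PROM1, had 0.39 (edgeR adjusted p = 0.163) and DPP9, a cytosolic relative of DPP4, -0.31 (edgeR adjusted p = 0.197). Whether ANPEP differed from its relatives was not tested.

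Of 18 Wnt pathway genes, a pathway with LGR5, AXIN2 and RNF43 among its targets, 16 were tested and 0 called (median -0.03; 2, 2 and 2). TCF7, a DNA-binding partner of beta-catenin, had 3.81 ± 0.998 CPM in DMSO and 0.890 ± 0.861 CPM in lenvatinib libraries (-2.01, edgeR adjusted p = 0.128). DKK1, a secreted Wnt antagonist, had 10.3 ± 3.18 and 3.10 ± 2.16 CPM (-1.25, edgeR adjusted p = 0.144), and RNF43 2.98 ± 0.959 and 1.33 ± 0.684 CPM (-0.92, edgeR adjusted p = 0.246). In these 3 of the 16 tested genes every lenvatinib library lay below every DMSO library, the state of 3.38% of all tested genes. They were named for the smallest p in the same libraries, and none passed edgeR's test. TCF7 averaged under 1 CPM in the lenvatinib libraries and passed the filter through its DMSO level, which partly fixed its direction in advance.

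Of 16 Notch pathway and biliary genes 12 were tested and 0 called (median -0.29; 6, 3 and 2). NOTCH2, a receptor of biliary fate, had 180 ± 47.6 and 114 ± 36.5 CPM (-0.39, edgeR adjusted p = 0.115). Of 14 CD44 partners, its hyaluronan synthases, sheddases and cytoskeletal linkers, 8 were tested and 0 called (median -0.21; 1, 0 and 0). EZR (ezrin), which ties CD44 to actin, had 272 ± 13.7 CPM in DMSO and 165 ± 71.8 CPM in lenvatinib libraries (-0.53, edgeR adjusted p = 0.310). The related linker RDX had -0.32 (edgeR adjusted p = 0.225) and the sheddase ADAM10 -0.47 (edgeR adjusted p = 0.328).

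Of 18 hepatocyte markers 6 were tested and 4 were called, all lower (median -2.55; 4, 4 and 4). The fibrinogen chains FGB (4.99 ± 2.65 CPM in DMSO, 0.286 ± 0.297 CPM in lenvatinib) and FGA (2.50 ± 0.747 and 0.287 ± 0.263 CPM) had log2 fold changes of -3.56 and -2.70, both called. RBP4, the plasma retinol carrier, fell by 2.67. The edgeR adjusted p was 0.00421 for FGB, 0.0200 for FGA and 0.00913 for RBP4. FGB and FGA averaged under 1 CPM in the lenvatinib libraries and passed the filter through their DMSO levels. The filter thus partly fixed their direction in advance, and with it the direction and median of the list. Of the 4 tested epithelial markers 0 were called (median -0.57; 2, 2 and 1). Of the 5 tested markers of other cell types 1 was called (median -0.68; 3, 3 and 1): CD68, a lysosomal glycoprotein known from macrophages, fell by 1.19 (edgeR adjusted p = 0.0240). PDGFRB, a receptor kinase of mesenchymal cells, had 37.4 ± 5.94 CPM in DMSO and 27.6 ± 9.98 CPM in lenvatinib libraries (-0.68, edgeR adjusted p = 0.128). COL1A1, a fibrillar collagen chain, had 26.8 ± 2.37 and 35.7 ± 4.92 CPM (0.33, edgeR adjusted p = 0.205).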

How the data were processed

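Total RNA of 8 MHCC-97H libraries was sequenced. Per the file headers, the authors deposited counts, FPKM and TPM with positions of 20263 genes. FastQC, HISAT2, bedtools, StringTie and the build GRCh38 are named in the submitters' processing notes (versions, annotation release, pairing, strandedness: not given in the sources used here). Deposited counts were used for tests and the deposited TPM for levels between genes. The deposited FPKM served only to derive the length each library's values imply (count divided by FPKM), which varied up to 1.61-fold between libraries for SALL4 and 1.50-fold for CD24, so TPM and counts need not move alike. Antisense genes overlap SOX9, CD44 and DPP4, and their reads cannot be told apart without strand; PROM1 overlaps FGFBP2 on the same strand.

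Genes averaging 1 CPM or more were fitted with edgeR 4.0.16 under R 4.3.3 (TMM, robust quasi-likelihood, Benjamini-Hochberg over 11827 genes, threshold 0.05). The SE of an edgeR fold change was derived from its test, as the absolute log2 fold change divided by the square root of the F statistic. Fits compared all lenvatinib with DMSO libraries, the 80 and 100 µM libraries with DMSO, a dose slope (per 20 µM, centred at 70 µM), and each dose with DMSO; residual degrees of freedom were 6, 4, 5 and 3, and 1 fewer with the GC slope. GC content is that of the longest GENCODE v29 transcript; the positions of all 10 markers in the file equal those of that release. Totals limit the precision: a count of 0 allows 3 counts, 0.0627 to 0.483 TMM-scaled CPM.

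The markers, the lists, the GC slope and the comparison of 80 and 100 µM were chosen with earlier results of these data known. Of each list up to 3 genes with the smallest unadjusted p in the GC-slope fit are named, and the 5 genes most like the marker with the smallest such p. Genes named beyond this rule (the aminopeptidases, KRT8, KRT18, CDH1, OCLN, CEBPA, ALB, AFP, APOA1, APOA2, TF, PTPRC, CD3E and PECAM1) were chosen after their values were seen. Alternatives were DESeq2 1.42.0, limma-voom of limma 3.58.1, other scalings and filters, GC content of all exon bases, a block on the library number, and leaving out each library; limma on log2(TPM + 1) was added after seeing the data. The fits were tested on simulated data. Promoter sequences are those of RefSeq on GRCh38.p14. Some genes and a motif that these rules cover are not reported here.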

Additional observations from a re-analysis of the deposited data

Results flagged for a closer look

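Of 16 sets of a marker in one group of 4 libraries, 2 had a library far from the other 3 by the gap between values relative to their range. Chance gives about 1 in 20 sets where values vary, but here the other 3 values were 0, which fixes that measure at 1 whatever the height of the remaining one. Both were at 60 µM, the library with the lowest total and the highest GC slope. PROM1 had 0.322 CPM there (2 reads, below the 0.483 CPM that 3 counts are worth in that library) and 0 in the other lenvatinib libraries. KRT19 had 0.644 CPM there (4 reads) and 0 in the other 7 libraries.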

How the results depend on the processing

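With the GC slope, the ANPEP log2 fold change lay between -2.13 and -1.84 over the alternatives named in the processing summary and was called in 14 of 16. By limma on log2(TPM + 1), chosen after seeing the data, it was -1.54 (limma adjusted p = 0.00397). On that scale SALL4 was -0.40 with the GC slope (limma adjusted p = 0.322). At 80 and 100 µM without the slope, SALL4 was -0.32 there (limma adjusted p = 0.824). The number of markers called with the GC slope was 3 by DESeq2, 3 by limma-voom, and 0 to 4 when 1 library was left out (0 without 80 or 100 µM, 4 without 60 µM). At 80 and 100 µM it was 1 by DESeq2 and 4 with the GC slope added. Calls over single doses were 0 with a filter at 5 CPM, 3 by DESeq2, 0 by limma-voom, 6 with the GC slope added (40 and 60 µM lie outside the DMSO range of slopes there), and 0 to 2 with 1 library left out. Without the GC slope, SOX9 was 0.10 by limma-voom and -0.46 to 0.21 with 1 library left out, and CD44 -0.23 to 0.017. For the dose slope, CD44 was 0.22 with library totals only and 0.034 with the GC slope, SOX9 -0.25 and SALL4 -0.35 with the GC slope. By dose, CD44 at 60 µM was -0.47 with library totals only; with the GC slope SOX9 was 0.99 at 40 µM, 1.86 at 60 µM and -0.13 at 100 µM, and CD24 0.016 at 60 µM; SOX9 at 100 µM was -0.14 to 0.39 with 1 library left out. The cause was not tested. Calls at single doses rest on 1 library per dose. The number of all genes called there also rose or fell with the setting, and the marker counts were not tested against it. The genes called with the GC slope numbered 386, and 2038 by DESeq2, 997 with DESeq2 size factors, 830 by limma-voom, 633 with library totals only, and 0 (without 80 µM) to 2770 (without 60 µM). Summed over the 4 doses, calls of a gene at a dose numbered 4403 by edgeR, 7906 by DESeq2 and 13 by limma-voom. Deviations of same-numbered libraries from their group means correlated at 0.63, -0.46, 0.84 and -0.61, and no DMSO library correlated best with its own number. Such deviations also hold the GC trend and the differences between doses, so they cannot decide whether the library numbers pair the samples. A replicate block gave 0 markers without and 1 with the GC slope, and 232 genes with it.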
